A study of Mus musculus with 6 samples.

Results

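The 9 core genes of the Hedgehog pathway were followed in RNA-Seq of the mouse aortic valve. They were taken by name from the 23107 genes listed: the ligands Shh, Ihh and Dhh, the receptor Ptch1, the signal transducer Smo, the transcription factors Gli1, Gli2 and Gli3, and the decoy receptor Hhip. Aortic valve tissue came from 4-month-old mice of an outbred strain, with 3 control and 3 caAcvr1:Nfatc1Cre mutant libraries, numbered 1 to 3 by their replicate labels. The mutants carried a constitutively active Acvr1 transgene, a BMP type I receptor that signals without ligand once Cre has acted on it, together with Cre knocked into the Nfatc1 locus, where it acts in the endocardium, the cells derived from it and the junction of leaflet and wall, whose cells are in part of other origin. The labels call the controls wild type, whereas the methods of the study allow controls with the transgene alone, with Cre alone or with neither, and do not say which were sequenced. It is not stated how many mice went into a library, so p-values measure only the spread between these libraries.

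Hedgehog ligands are secreted, lipid-modified proteins that bind the receptor Ptch1. Unbound Ptch1 keeps Smo out of the primary cilium and silent, and ligand binding lifts this block, so that Smo signals to the Gli factors. Gli2 is mainly an activator and Gli3 mainly a repressor, while Gli1, Ptch1 and Hhip are themselves transcribed in response to the signal, which makes their RNA levels common readouts of the pathway. Ihh is known from growth plate cartilage and Dhh from Schwann cells, endothelium and Sertoli cells, and Hedgehog signaling through cilia is known to take part in the shaping of the aortic valve.

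The ligand and receptor genes are shown first by the DNA just before their start sites, because the Gli factors act by binding DNA. Of the 9 genes, 7 had an entry in the RefSeq promoter table of GRCm38.p6, which holds 250 bases before and 50 after each start. The full Gli consensus GACCACCCA, searched on both strands, was in 0 of these 7 windows and in 0.253% of all 32851 windows. Its shorter core, CCACCC or GGGTGG on the other strand, was in 6 of the 7 windows and in 31.5% of all windows. The 250 bases before the start of the expressed ligands Dhh (chr15:98898541-98898790, minus strand) and Ihh (chr1:74951673-74951922, minus strand) and of Ptch1 (chr13:63565736-63565985, minus strand) are given 5′ to 3′ on the strand of the gene, with each core match in capitals.
Dhh: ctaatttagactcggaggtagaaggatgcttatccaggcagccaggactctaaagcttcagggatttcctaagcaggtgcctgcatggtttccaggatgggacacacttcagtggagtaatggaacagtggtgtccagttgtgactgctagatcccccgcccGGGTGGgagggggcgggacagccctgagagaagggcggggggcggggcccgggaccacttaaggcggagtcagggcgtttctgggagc
Ihh: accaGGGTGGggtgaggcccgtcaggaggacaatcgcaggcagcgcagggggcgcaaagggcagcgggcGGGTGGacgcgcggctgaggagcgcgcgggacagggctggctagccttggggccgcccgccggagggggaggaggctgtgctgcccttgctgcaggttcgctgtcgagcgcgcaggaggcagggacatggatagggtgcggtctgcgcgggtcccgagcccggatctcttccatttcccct
Ptch1: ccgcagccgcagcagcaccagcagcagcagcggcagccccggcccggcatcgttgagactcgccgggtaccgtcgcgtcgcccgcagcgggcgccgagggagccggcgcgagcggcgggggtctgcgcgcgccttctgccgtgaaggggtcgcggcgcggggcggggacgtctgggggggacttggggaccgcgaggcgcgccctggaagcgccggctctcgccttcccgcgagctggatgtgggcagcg
The core lay 88 bases before the start of Dhh, and 246 and 181 bases before the start of Ihh. Ptch1 was the 1 gene of the 7 without it, and its RefSeq start lies 7863 bases inside the longer gene annotated by GENCODE. The other matches lay 162 bases before the start of Smo, 158 before Hhip, 170 before Gli3, and 192 and 205 before Gli2. A match of 6 letters is a description of the sequence and not a binding site, and these RNA libraries hold no measurement of binding.

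The libraries held between 32218345 and 55728853 fragments, so that 3 counts, the limit that a count of 0 allows, came to between 0.0538 and 0.0931 CPM. CPM is the share of a library's fragments on a common scale, normalized by the TMM method of edgeR. The limits alone were taken from the unscaled totals, and the TMM factors ran from 0.962 to 1.042. Such limits cover counting error only. Markers of valve interstitial cells and fibroblasts summed to between 13381.2 and 17243.1 CPM per library, and endothelial markers to between 2062.9 and 3062.3 CPM, so that the defining markers of the labelled tissue were present in all 6. Control replicate 2 stood apart, with the highest sums of smooth muscle and epithelial markers and the lowest sum of cardiac muscle markers. Its endothelial, adipocyte and neuron sums were also the highest, and its melanocyte and cartilage sums the lowest. Xist was at 54.5 and 59.1 CPM with Y-linked Ddx3y at 0.261 and 0.348 CPM in control replicate 1 and mutant replicate 1, Ddx3y was at 104.4 and 98.7 CPM with Xist at 0.297 and 0.629 CPM in control replicates 2 and 3, and both genes were above 10 CPM in mutant replicates 2 and 3. Acvr1 averaged 58.9 ± 9.12 CPM over controls and 54.7 ± 4.38 CPM over mutants (SD, n = 3 each), the groups overlapping. Whether fragments of the transgene were counted with Acvr1 is not stated, so that it gives no check of the mutant label.

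Of the 9 Hedgehog genes, 8 had at least 10 counts in at least 3 libraries and were compared between mutants and controls. The lowest count of any of these 8 in any library was 14, so none entered through 1 group alone. In the edgeR quasi-likelihood test each of the 8 had an adjusted p of 0.999, so 0 of 8 were under 0.05, where 0% of the 15354 genes tested had one. At an unadjusted p under 0.05 there were 0 of 8 by edgeR, where 3.45% of all genes passed, and 1 of 8, Gli2, by DESeq2 (4.45% of all genes) and by limma-voom (3.45%). An adjusted p under 0.05 was found for 0 of 8 by DESeq2 (0.169% of all genes) and by limma-voom (0%). In 0 of the 8 were the groups apart, where 8.88% of all genes had all mutants above or all below all controls. Fitted log2 fold changes of mutants against controls, given with their standard errors (SE), were positive in 2 members (Dhh and Hhip) and negative in 6, with a median of -0.24 beside 0.01 for all genes tested, and the median was -0.04 without control replicate 2.

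**Figure D1:**
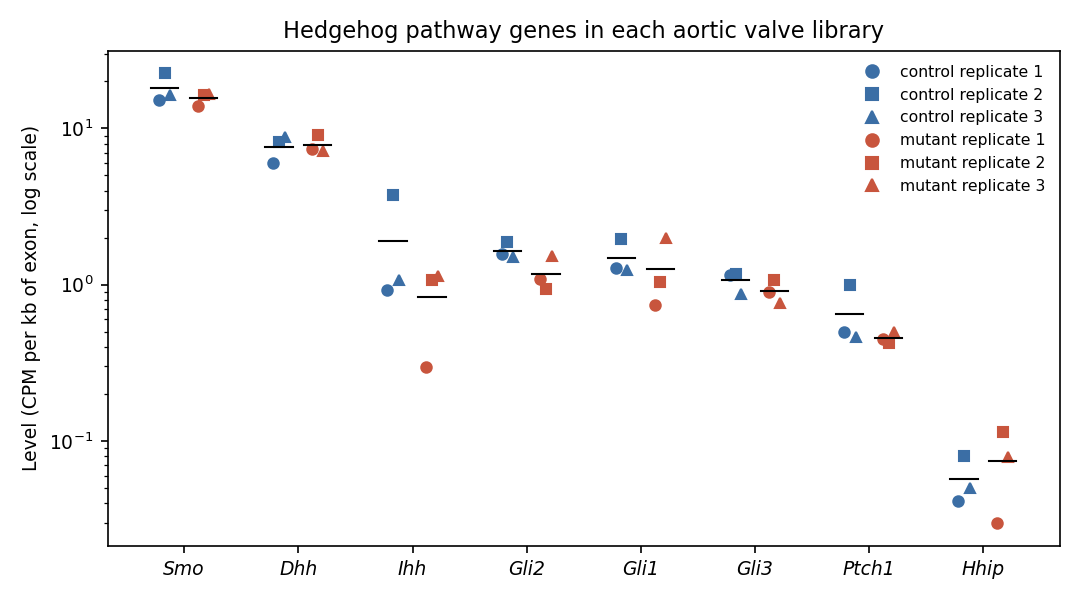
Level of each Hedgehog gene in every aortic valve library, in CPM per kilobase of exon on a log axis, with controls and mutants in separate colours a marker shape for each replicate number and lines at the group means (n = 3). Smo and Dhh are the highest in all 6 libraries and Hhip is the lowest of the genes with counts, while Shh, with 0 counts, has no point on a log axis.

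Among the 9 members, Smo and Dhh had the highest levels, and Shh RNA was not detected. Compared per kilobase of exon, which corrects for gene length, the control mean was 18.1 ± 3.92 CPM per kilobase (SD, n = 3) for Smo and 7.65 ± 1.49 for Dhh. Ihh, Gli2 and Gli1 followed at 1.91 ± 1.59, 1.65 ± 0.204 and 1.49 ± 0.399, with ranges that overlapped between neighbours. The place of Ihh rested on control replicate 2, at 3.74 CPM per kilobase beside 0.930 and 1.07 in controls 1 and 3. It was above Gli2 in 1 of 3 controls and below Gli3 in control replicate 1, and without control replicate 2 its mean was 0.999, at rank 6. Next by control mean lay Gli3 at 1.07 ± 0.166 and Ptch1 at 0.651 ± 0.296, whose ranges overlapped although Gli3 was above Ptch1 in 3 of 3 controls. Hhip was the lowest gene with counts, at 0.0573 ± 0.0207 CPM per kilobase. The steps from Smo to Dhh, from Dhh to the group of Ihh, Gli2 and Gli1, from Gli1 to Gli3 and from Ptch1 to Hhip were free of overlap in the controls. In the mutants Smo (15.6 ± 1.55) and Dhh (7.87 ± 1.04) again led without overlap and Hhip (0.0744 ± 0.0425) again came last, while Gli1, Gli2, Gli3, Ihh and Ptch1 formed a run from 1.26 ± 0.643 down to 0.456 ± 0.0405 in which each neighbouring pair overlapped. Per kilobase of coding sequence the order of the control means was the same, but the control ranges of Gli1 and Gli3 overlapped. On that scale Gli1 was above Gli3 in 2 of 3 controls, and Gli3 above Ptch1 in 2 of 3. In the mutants Ihh moved from rank 6 to rank 3, Gli1 from 3 to 4 and Gli2 from 4 to 6, and the ranges of Smo and Dhh overlapped.

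Shh (chromosome 5, 28456815 to 28467256 of GRCm38) had 0 counts in all 6 libraries, which leaves room for a level of up to 0.0538 to 0.0931 CPM. The ligand RNA detected was that of Dhh and Ihh.

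Dhh (chromosome 15, 98891152 to 98898540), whose upstream sequence is the first printed above, was the more abundant ligand in every library. Controls 1 to 3 gave 26.3, 35.9 and 38.7 CPM, from 1408 to 1817 counts, and mutants 1 to 3 gave 32.3, 39.9 and 31.7 CPM, from 1013 to 1674 counts. The lowest library was a control and the highest a mutant, the groups overlapped, and the highest was only 1.52 times the lowest. The log2 fold change was 0.04 (SE 0.18), and the 95% interval of the fold ran from 0.772 to 1.37. The sign rested on single libraries, at -0.11 without control replicate 1 and -0.07 without mutant replicate 2. Exons of Dhh share 546 of 4399 bases (12.4%) with Rhebl1, a neighbour on the same strand with 159 to 251 counts, and 25.2% with the antisense gene Gm49442, for which no counts are listed, and the strand of the library kit is not stated, so that fragments in these stretches cannot be assigned with certainty.

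Schwann cells are a known source of Dhh, so their markers were summed in the same libraries. The 14 markers summed to 460.6, 509.9 and 452.4 CPM in the controls and to 462.5, 505.5 and 573.5 CPM in the mutants. The sums overlapped between the groups and spanned a narrow range, as Dhh did. Among them Sox10, a transcription factor of neural crest and Schwann cells, was at 7.41, 7.34 and 8.52 CPM in the controls and 11.6, 3.54 and 5.32 CPM in the mutants. In bulk tissue, fewer cells of a type and less RNA per cell cannot be told apart.

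Ihh (chromosome 1, 74945315 to 74951672), the ligand that chondrocytes send in growth plates, varied most of the 8 genes. Controls 1 to 3 gave 2.84, 11.4 and 3.25 CPM (152, 577 and 150 counts), and mutants 1 to 3 gave 0.907, 3.26 and 3.47 CPM (47, 129 and 111 counts). Control replicate 2 was the highest and mutant replicate 1 the lowest, 12.6-fold apart, and the other 4 libraries lay between 2.84 and 3.47 CPM. On the log2 scale the mutants differed from the controls by -1.20 (SE 0.70, 95% interval -2.86 to 0.46). This difference was -0.26 without control replicate 2 and -1.53 without control replicate 1. The spread of log2 CPM among the controls was wider for Ihh than for 95.2% of all genes tested.

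As a share of the fragments of the ligand genes, Ihh made up 9.74% in control replicate 1 (Wilson 95% interval 8.37 to 11.3%, counting error only), 24.1% in control replicate 2 (22.4 to 25.9%) and 7.74% in control replicate 3 (6.64 to 9.02%). In the mutants the share was 2.73% in replicate 1 (2.06 to 3.61%), 7.56% in replicate 2 (6.40 to 8.91%) and 9.88% in replicate 3 (8.27 to 11.8%). Control replicate 2 and mutant replicate 1 thus differed from the rest by more than counting error, while the intervals of mutant replicates 2 and 3 overlapped those of control replicates 1 and 3. Because Ihh is a cartilage ligand, cartilage markers were read in the same libraries. The 12 cartilage markers listed summed to between 258.8 and 489.5 CPM in the controls and to between 295.6 and 448.7 CPM in the mutants, and control replicate 2 had the lowest of these sums. Comp and Hapln1 made up most of each sum, and the other 10 markers together came to between 35.2 and 66.6 CPM per library. Among these, Col2a1 was at most 2.35 CPM, at 0.020 CPM in control replicate 2 and at 0 in mutant replicate 1. The aggrecan gene Acan was highest in control replicate 2, at 20.8 CPM, where Col9a1 (1.98 CPM) and Col11a1 (0.929 CPM) were at their lowest. The 11 markers of hypertrophic cartilage and bone summed to between 34.4 and 146.6 CPM in the controls and to between 44.8 and 64.5 CPM in the mutants. Of these, Spp1 reached 114.0 CPM, Alpl 36.6 CPM and Mmp13 11.9 CPM, while Col10a1 was at 0.26 CPM or less in all libraries. The part of cartilage cells in the Ihh values was not tested.

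Ptch1 (chromosome 13, 63508328 to 63573598), the ligand receptor and a direct target of the Gli factors, gave 7.07, 14.1 and 6.55 CPM in controls 1 to 3 and 6.35, 5.97 and 7.10 CPM in mutants 1 to 3. All 3 mutants and 2 of the 3 controls lay between 5.97 and 7.10 CPM, and control replicate 2 lay above them. Means were 9.23 ± 4.21 CPM for controls and 6.47 ± 0.575 CPM for mutants (SD, n = 3 each). Its log2 fold change came to -0.51 (SE 0.32, 95% interval -1.26 to 0.24), and it was -0.07 without control replicate 2.

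Hhip (chromosome 8, 79965851 to 80058006), a membrane protein that binds and sequesters the ligands and is itself induced by the pathway, had the fewest counts of the 8 genes. Controls 1 to 3 gave 20, 37 and 21 counts, or 0.373, 0.732 and 0.455 CPM, and mutants 1 to 3 gave 14, 41 and 23 counts, or 0.270, 1.04 and 0.719 CPM. The lowest and the highest library were both mutants. Its log2 fold change came to 0.37 (SE 0.59), its 95% interval of -1.04 to 1.77 covers changes of more than the size of the estimate in both directions, and it was -0.09 without mutant replicate 2.

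Smo (chromosome 6, 29735503 to 29761365), the transducer that Ptch1 holds in check, was the member with the highest level. It gave 85.8, 126.7 and 92.3 CPM in controls 1 to 3 and 77.7, 92.0 and 93.5 CPM in mutants 1 to 3. Control replicate 2 was again the highest, and the other 5 libraries lay between 77.7 and 93.5 CPM. The mutants differed from the controls by -0.21 on the log2 scale (SE 0.17, 95% interval -0.61 to 0.18), and by -0.02 without control replicate 2.

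Gli1 (chromosome 10, 127329882 to 127341974), the Gli factor that is made in response to the signal, gave 6.34, 9.75 and 6.24 CPM in controls 1 to 3 and 3.73, 5.21 and 9.88 CPM in mutants 1 to 3. The mutants covered the whole range, from the lowest to the highest library. Its log2 fold change came to -0.25 (SE 0.39, 95% interval -1.17 to 0.67), and single libraries moved it, to -0.74 when mutant replicate 3 was left out and to 0.02 when mutant replicate 1 was. Of the Gli1 exons, 62 of 4995 bases (1.24%) overlap Arhgap9 and 5.31% overlap Gm47200, both on the opposite strand.

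The response genes Gli1 and Ptch1 did not keep a fixed ratio. Gli1 divided by Ptch1, both in CPM, came to 0.897, 0.692 and 0.954 for controls 1 to 3 and 0.587, 0.873 and 1.39 for mutants 1 to 3. Mutant replicate 3, the library with the most Gli1, was the only 1 in which Gli1 exceeded Ptch1 on this scale, which is not corrected for length.

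Gli2 (chromosome 1, 118834132 to 119053619), the main activator, had the smallest unadjusted p of the 8 genes. Controls 1 to 3 gave 10.9, 12.9 and 10.3 CPM, and mutants 1 to 3 gave 7.45, 6.40 and 10.5 CPM. Mutant replicates 1 and 2 lay below all controls, and mutant replicate 3 lay just above the lowest control. Control libraries averaged 11.4 ± 1.40 CPM and mutant libraries 8.10 ± 2.1 CPM (SD, n = 3 each). A log2 fold change of -0.49 (SE 0.22, 95% interval -1.01 to 0.04) kept its sign without each library in turn, from -0.71 to -0.34, and it did not pass the threshold.

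Gli3 (chromosome 13, 15463235 to 15730026), the main repressor, gave 11.0, 11.3 and 8.39 CPM in controls 1 to 3 and 8.59, 10.3 and 7.29 CPM in mutants 1 to 3. The groups overlapped, with 2 mutants above the lowest control. Its value on the log2 scale was -0.23 (SE 0.20, 95% interval -0.70 to 0.24), between -0.36 and -0.12 without single libraries.

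**Figure D2:**
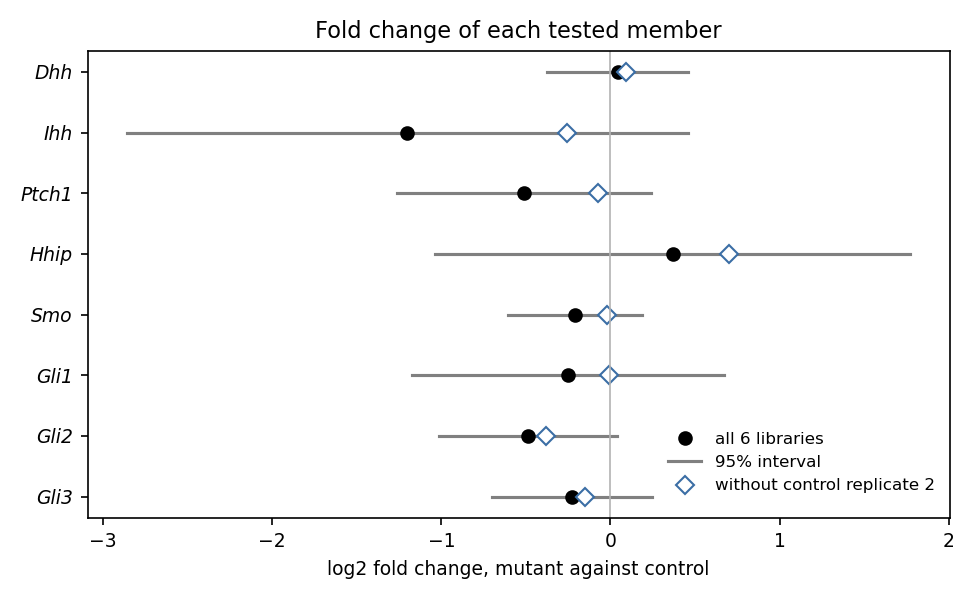
Log2 fold change of mutants against controls for the 8 tested Hedgehog genes (black points, edgeR) with 95% intervals (grey lines), and the estimate without control replicate 2 (open diamonds). All 8 intervals include 0, and the estimates of Ihh, Ptch1 and Smo move from -1.20, -0.51 and -0.21 to -0.26, -0.07 and -0.02 without that library.

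Control replicate 2 was the highest library in 5 of the 8 genes (Ihh, Ptch1, Smo, Gli2 and Gli3) and in 24.5% of all genes tested. The smooth muscle markers summed to 8010.0, 14352.8 and 7149.7 CPM in controls 1 to 3 and to 4015.8, 6641.5 and 7218.3 CPM in mutants 1 to 3, and control replicate 2 was the highest library in 9 of these 10 markers. The 12 epithelial markers summed to 51.6, 386.7 and 96.8 CPM in the controls and to 40.5, 87.7 and 120.1 CPM in the mutants. Most of this came from the keratins Krt8, Krt18 and Krt19, which mesothelium also makes, with Krt19 at 166.0 CPM in control replicate 2, whereas Epcam was under 1 CPM and Foxn1 at 0 in all libraries. Cardiac muscle markers, with sums of 32383.3, 12085.2 and 38213.2 CPM in the controls and 39534.3, 17941.7 and 27616.7 CPM in the mutants, were lowest in control replicate 2. The sums of endothelial (3062.3 CPM), adipocyte (560.8 CPM) and neuron (89.15 CPM) markers were also highest in control replicate 2. That library had the lowest sum of melanocyte markers, at 27.74 CPM. Ihh was highest where the smooth muscle and epithelial sums were highest and lowest where both were lowest, in mutant replicate 1. The part of this tissue makeup in the Hedgehog values was not tested.

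**Figure D3:**
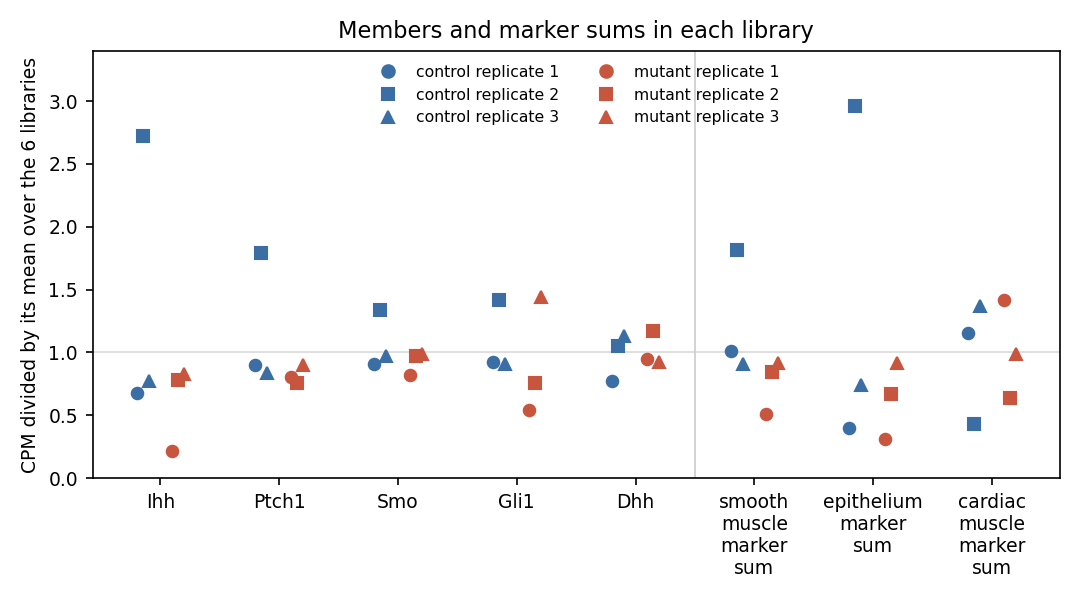
Values of 5 Hedgehog genes and 3 marker sums in each library, each divided by its mean over the 6 libraries, so that 1 is the average library. Control replicate 2 is high for Ihh, Ptch1, Smo and for the smooth muscle and epithelial sums, low for the cardiac muscle sum, and not the highest for Dhh.

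Other marker lists were read for differences between the groups. The 9 macrophage markers listed summed to 906.6, 829.6 and 841.3 CPM in controls 1 to 3 and to 997.2, 1047.9 and 1081.5 CPM in mutants 1 to 3, so that the sums were apart, and 4 of the 9 (Cd68, C1qa, C1qb and C1qc) had all mutants higher, against 4.06% of all genes. Of the 10 smooth muscle markers, 9 had negative fold changes, with a median of -0.82 that was -0.43 without control replicate 2, and 4 (Myh11, Tagln, Smtn and Synpo2) had all mutants lower, against 4.82% of all genes, while their sums overlapped. All 10 stress and dissociation markers had positive fold changes, 3 of them with an unadjusted p under 0.05 by edgeR, against 3.45% of all genes, and 1 (Hmox1) with groups apart, against 8.88%, and their sums overlapped, from 746.0 to 1044.1 CPM in the controls and from 973.2 to 1220.5 CPM in the mutants. Of the 6 B and plasma cell markers tested, 1, Igj, had groups apart with all mutants higher, against 4.06% of all genes. It was the only gene of these 4 lists with an adjusted p under 0.05 by DESeq2, against 0.169% of all genes, while edgeR gave 0. Of the markers of hypertrophic cartilage and bone, 7 were tested, 5 with negative fold changes and a median of -0.41, and 2 (Ibsp and Phex) had all mutants lower, against 4.82% of all genes. All 8 adipocyte markers tested had negative fold changes with 0 apart, and all 6 melanocyte markers had positive ones with 1 (Mitf) apart, against 8.88% of all genes. Of the 9 epithelial markers tested, Krt14 had all mutants lower, against 4.82% of all genes, and Nkx2-1 all mutants higher, against 4.06%. Nkx2-1 lay between 0.304 and 0.759 CPM, so that its separation rested on low counts. In the lists of endothelium, valve interstitial cells and fibroblasts, cardiac muscle, Schwann cell, cartilage, red blood cell and neuron, 0 markers were apart. The part of these differences in the values of the members and of the pathway genes was not tested.

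The wider pathway was covered by 5 lists with 100 genes tested. In each list, 0 genes had an adjusted p under 0.05 by edgeR and by DESeq2, and the edgeR adjusted p of every pathway gene named was 0.999. The list of ligand processing, release and carriers had 10 genes tested, 5 with positive and 5 with negative fold changes, 0 of them with an unadjusted p under 0.05 by edgeR and 0 with groups apart. Its median log2 fold change was 0.01, beside 0.01 for all genes. Scube3, of the family of secreted proteins that help release the ligands, gave 9.18, 31.4 and 13.4 CPM in controls 1 to 3 and 4.46, 11.8 and 10.8 CPM in mutants 1 to 3. As for Ihh, the highest library was control replicate 2 and the lowest mutant replicate 1, and the log2 fold change of -1.001 (SE 0.53) became -0.33 without control replicate 2. Hhat, which adds palmitate to the ligands, came to 0.34 (SE 0.30) on the log2 scale, and the glypican Gpc6 to -0.28 (SE 0.27), or 0.02 without control replicate 2.

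The co-receptors Cdon and Boc, which present the ligand to Ptch1, had log2 fold changes of 0.28 (SE 0.37) and -0.12 (SE 0.19), and those became -0.11 without mutant replicate 1 for Cdon and 0.02 without control replicate 2 for Boc.

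The 32 cytoplasmic regulators of Smo and the Gli factors divided evenly, 16 with positive and 16 with negative fold changes and a median of 0.00. By edgeR 3 of them had an unadjusted p under 0.05, against 3.45% of all genes. The groups were apart in 6 (18.8%, against 8.88% of all genes), with all mutants lower in 5, Sufu, Kif7, Gpr161, Csnk1d and Csnk1g2 (4.82% of all genes in that direction), and all higher for Dyrk1a. Sufu is known to hold the Gli factors in the cytoplasm. The exact permutation test of any 1 such gene gives p = 0.1, two-sided, the smallest that 3 against 3 libraries allow.

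Kif7, the kinesin that organises the ciliary tip where the Gli factors are processed, gave 16.2, 17.2 and 13.01 CPM in controls 1 to 3 and 11.9, 9.33 and 9.60 CPM in mutants 1 to 3. Averages were 15.5 ± 2.18 and 10.3 ± 1.39 CPM (SD, n = 3 each), and the log2 fold change of -0.59 (SE 0.17) stayed between -0.71 and -0.51 without single libraries. Sufu gave 17.8, 21.4 and 19.8 CPM in controls 1 to 3 and 16.2, 15.8 and 13.5 CPM in mutants 1 to 3, with a log2 fold change of -0.38 (SE 0.13), or -0.44 to -0.30 without single libraries. Without control replicate 2 these values were -0.51 for Kif7 and -0.31 for Sufu. Dyrk1a, a kinase that phosphorylates Gli1, was at 28.6, 31.6 and 33.0 CPM in the controls and at 37.8, 36.7 and 37.2 CPM in the mutants, with a log2 fold change of 0.26 (SE 0.10). None of these 3 genes passed the threshold.

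Among 29 genes of the primary cilium and of intraflagellar transport, the transport along the cilium that Smo and the Gli factors depend on, 11 had positive and 18 negative fold changes, with a median of -0.04. Of these, 0 had an unadjusted p under 0.05 by edgeR, against 3.45% of all genes, and the groups were apart in 2 (6.90%, against 8.88% of all genes), Ttc21b and Kif3a, both with all mutants lower. The intraflagellar transport gene Ttc21b was at -0.23 on the log2 scale (SE 0.14), or -0.12 without control replicate 2, and the kinesin motor gene Kif3a at -0.18 (SE 0.12), or -0.08 without that library. Ift80 had the largest positive value of the named cilium genes, 0.38 (SE 0.18), with overlapping groups.

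Of 24 tested genes reported as Hedgehog targets in mesenchyme, 10 had positive and 14 negative fold changes, with a median of -0.21 that was -0.07 without control replicate 2 and turned to 0.029 over the 18 targets with a mean count of at least 100. By edgeR 4 had an unadjusted p under 0.05, against 3.45% of all genes, Cntfr and Fst with positive and Foxc1 and Foxc2 with negative fold changes. The groups were apart in 6 (25.0%, against 8.88% of all genes), with all mutants lower for Foxl1, Foxc1, Foxc2 and Prdm1 and all higher for Cntfr and Snai1.

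The forkhead gene Foxc2, needed in the endocardial cushions and the aortic arch, gave 73.7, 74.8 and 75.1 CPM in controls 1 to 3 and 52.5, 62.8 and 40.9 CPM in mutants 1 to 3. The controls were within 2 CPM of each other and all mutants lay below them, with a log2 fold change of -0.52 (SE 0.16), or -0.67 to -0.37 without single libraries. Its relative Foxc1 was at 145.8, 203.0 and 154.2 CPM in the controls and at 112.1, 142.2 and 127.2 CPM in the mutants, with a log2 fold change of -0.40 (SE 0.16), or -0.24 without control replicate 2. Cntfr, a receptor of ciliary neurotrophic factor, gave 21.1, 13.8 and 16.8 CPM in controls 1 to 3 and 27.9, 24.6 and 48.7 CPM in mutants 1 to 3. All mutants lay above all controls, and the log2 fold change was 0.97 (SE 0.29), or 0.60 to 1.15 without single libraries. The zinc finger gene Sall1 was at 15.9, 10.6 and 21.1 CPM in the controls and at 11.8, 14.5 and 9.41 CPM in the mutants, with overlapping groups and a log2 fold change of -0.41 (SE 0.28).

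**Figure D4:**
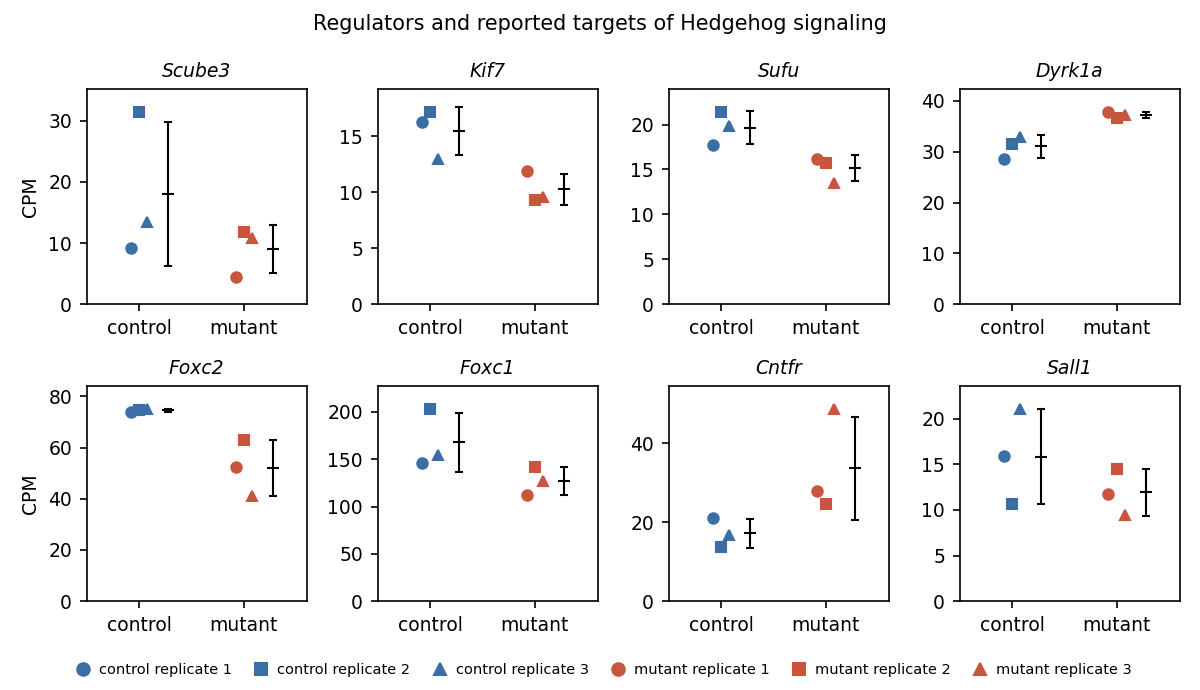
CPM of 4 pathway regulators (Scube3, Kif7, Sufu, Dyrk1a) and 4 reported targets (Foxc2, Foxc1, Cntfr, Sall1) in each control and mutant library, on linear axes from 0, with group mean and SD as black bars (n = 3). The groups are apart in 6 of the 8 panels and overlap for Scube3 and Sall1, and no gene has an adjusted p under 0.05. All but Sall1 were shown because they were among the 3 genes of smallest unadjusted p in their list. The count of panels apart therefore cannot be compared with the 8.88% of all genes.

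The genes whose log2 CPM followed Ptch1 most closely over the 6 libraries were Smoc1 (Pearson r = 0.997), AW555464 (0.994), 5430416O09Rik (0.993), Zfp516 (0.991) and Nhsl1 (0.99). For Gli1 they were Zfp82 (0.994), Chka (0.986), Fstl3 (0.985), Mtap1a (0.983) and Crtc2 (0.982). With 6 points such values are common, since 278 genes had r above 0.9 with Ptch1 and 200 with Gli1, and all pairs share the libraries and their depth. Ptch1 was at 14.1 CPM in control replicate 2 and between 5.97 and 7.10 CPM elsewhere, so r with Ptch1 rests largely on that library. Smo, Ihh, Gli2 and Gli3 were also highest in control replicate 2, and r without it was not tested. Among the members, r with Ptch1 was 0.897 for Smo, 0.792 for Ihh, 0.726 for Gli2, 0.645 for Gli1, 0.47 for Gli3, 0.235 for Hhip and 0.032 for Dhh, where 5% of all genes lay above 0.822. With Gli1 it was 0.83 for Ihh, 0.777 for Gli2, 0.756 for Smo, 0.533 for Hhip, -0.005 for Gli3 and -0.046 for Dhh, where 5% of all genes lay above 0.804.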

How the data were processed

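RNA-Seq of aortic valve was analysed in 3 control and 3 mutant libraries, grouped by the deposited labels. Per the submitters' processing notes the authors used FastQC, TopHat2 2.0.13, Bowtie2 2.2.1, Cufflinks and Cuffdiff 2.1.1 with mm10. The authors deposited estimated counts, the fragments that Cuffdiff assigned to each of 23107 genes, not scaled for library size. Of the values, 1.66% to 1.87% per library were not whole and were rounded, and 4524 genes had no count in any library. No column was left unused, and columns were matched to samples by their descriptions. Totals of 32218345 to 55728853 fragments set the limit of 0.0538 to 0.0931 CPM given by 3 counts.

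Counts were tested in R 4.3.3 using edgeR 4.0.16 (two-sided quasi-likelihood F test, TMM normalization, no covariate), over the 15354 genes that reached 10 counts in 3 or more libraries. Benjamini-Hochberg adjustment covered all genes tested, at a threshold of 0.05. CPM are TMM-scaled, except for the limits given by 3 counts, and levels were compared between genes per kilobase of GENCODE vM21 exon. Each standard error was derived from the F statistic of the fit and the size of the fold change. The pipeline was tested on simulated data. Alternatives were DESeq2 1.42.0, limma 3.58.1 (voom with and without quality weights), other normalizations and filters, a replicate block, leaving out each library and an unadjusted threshold. Added after the data were seen were the 4 libraries with Y-linked counts alone, the order of levels without control replicate 2, and GENCODE coding length, which replaced a protein table that was not used here. Cuffdiff was not run.

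The 9 members, the 5 pathway lists and the marker lists were chosen with earlier results of these data known. Named are every member, the 3 tested genes of smallest unadjusted p in each pathway list with Sufu and Sall1, and the 5 genes most correlated with Ptch1 and with Gli1. Genes with groups apart are named beside their counts, and Krt8, Krt18, Krt19 and the other markers were singled out after their values were seen. Promoter sequences are from RefSeq (GRCm38.p6), with 7 of 9 members matched. No set test was made. Some results that this rule covers are not reported here.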

Additional observations from a re-analysis of the deposited data

How the results depend on the processing

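With edgeR 0 genes had an adjusted p under 0.05 with all libraries, without each library in turn, under the other normalizations and filters and with the replicate block, and limma-voom also called 0. DESeq2 called 26 genes and an unadjusted p under 0.05 gave 529. The cause was not tested, and 0 of the 8 Hedgehog genes had an adjusted p under 0.05 under any setting. With the replicate number as a block, edgeR called 0 genes and changed no call. The numbers pair no libraries by the labels, and same-numbered libraries had deviations from their group means correlated at 0.254, 0.051 and 0.037.

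The signs of Ihh, Ptch1, Smo, Gli2 and Gli3 held under all settings run. Dhh reversed to -0.11 without control replicate 1, -0.071 without mutant replicate 2 and -0.070 in the libraries with Y-linked counts alone, Gli1 to 0.020 without mutant replicate 1, and Hhip to -0.093 without mutant replicate 2. For these the cause was not tested. Without single libraries the log2 fold changes ran from -0.11 to 0.16 for Dhh, from -0.74 to 0.020 for Gli1 and from -0.093 to 0.76 for Hhip. Hhip had no value at a mean count of at least 100.

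The median of the reported targets was -0.0545 with limma-voom quality weights, 0.029 with a mean count of at least 100, where 18 genes were left, -0.11 in the libraries with Y-linked counts alone, and between -0.21 and -0.074 without single libraries. The median of the cytoplasmic regulators was -0.060 in the libraries with Y-linked counts alone, and that of the cilium genes ran from -0.10 to 0.019 without single libraries. The cause was not tested. Depth limits Hhip and Shh most, at 14 to 41 and 0 counts per library.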
